A study of Mus musculus with 8 samples.

Results

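The genes described here are 7 transcription factors of the pancreatic endocrine cells (Pdx1, Nkx6-1, Nkx2-2, Isl1, Pax6, Neurod1 and Mafa) and 2 membrane proteins of the beta cell (Slc30a8 and G6pc2). They were chosen by name for their known role in islets, which makes 9 of the 21434 genes in the table. RNA from whole pancreatic tissue was sequenced in 4 Bach2KO and 4 Bach2WT mice, with 2 females (replicates 1 and 2) and 2 males (replicates 3 and 4) per group. All mice were 18 weeks old, untreated and of the strain C57BL/6N-Bach2tm1b(EUCOMM)Wtsi/leg. The Bach2KO mice lacked Bach2 in the whole body from the germline on, and the Bach2WT mice carried the intact gene, so an effect on islet cells and an effect that reached them from other tissues are not separated by this model. The libraries held 72299745 to 172029360 counts on genes.

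Islets of Langerhans make up a small part of the pancreas, and their beta, alpha, delta and PP cells produce insulin, glucagon, somatostatin and pancreatic polypeptide. Pdx1, Nkx6-1 and Mafa maintain the beta cell identity and drive insulin transcription together with Neurod1, whereas Nkx2-2, Isl1 and Pax6 act in several endocrine cell types. Slc30a8 encodes the zinc transporter ZnT8 of the insulin granule, and G6pc2 encodes the islet glucose-6-phosphatase that opposes glucokinase.

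The tissue carried the exocrine profile of a pancreas, with 10 acinar markers that summed to 457871 to 684540 CPM in a library (CPM are counts relative to the library total, scaled with the TMM factors). On the first principal component of the 12820 genes that passed a filter on low counts, the library Bach2KO 3 stood apart from the others. It was at 102 against -34.8 to 7.22, and results are therefore also given without it. The count of the targeted gene itself was of little use as a check of the genotype. Bach2 had 3 to 16 counts in the Bach2KO and 4 to 31 counts in the Bach2WT libraries, and counts over the whole gene do not show whether an exon is missing.

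Promoter sequences (250 bases before to 50 after a start site) were taken from RefSeq (GRCm38.p6) for 7 of the 9 genes, all but Mafa and Slc30a8, with 9 start sites in total. The 4 promoters below belong to the gene with the largest fold change between the genotypes among the 7 genes tested in edgeR (Nkx2-2), to 2 genes that varied with it (Nkx6-1 and G6pc2), and to the gene that varied in the opposite way (Pdx1). Capitals mark matches to the E-box CAGATG, which factors of the Neurod1 type bind, or to TGCTGA, the core of the Maf recognition element, on either strand and printed as they stand on the strand of the gene. The Nkx2-2 promoter lies at chr2:147186353-147186652 (reverse strand), the Nkx6-1 promoter at chr5:101664662-101664961 (reverse strand), the G6pc2 promoter at chr2:69219699-69219998 (forward strand, the second of its start sites) and the Pdx1 promoter at chr5:147269847-147270146 (forward strand).
Nkx2-2: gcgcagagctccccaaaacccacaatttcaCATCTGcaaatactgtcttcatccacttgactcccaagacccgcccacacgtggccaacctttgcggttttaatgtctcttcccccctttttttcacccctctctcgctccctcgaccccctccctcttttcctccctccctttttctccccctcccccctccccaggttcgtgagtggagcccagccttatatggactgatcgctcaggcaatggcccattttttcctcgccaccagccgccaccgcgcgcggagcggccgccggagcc
Nkx6-1: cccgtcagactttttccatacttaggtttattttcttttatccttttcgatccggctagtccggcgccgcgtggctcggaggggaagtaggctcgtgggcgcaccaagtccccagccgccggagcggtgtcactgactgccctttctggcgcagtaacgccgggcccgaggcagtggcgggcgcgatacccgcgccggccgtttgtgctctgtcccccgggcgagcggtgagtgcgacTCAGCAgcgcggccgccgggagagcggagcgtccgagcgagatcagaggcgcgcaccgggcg
G6pc2: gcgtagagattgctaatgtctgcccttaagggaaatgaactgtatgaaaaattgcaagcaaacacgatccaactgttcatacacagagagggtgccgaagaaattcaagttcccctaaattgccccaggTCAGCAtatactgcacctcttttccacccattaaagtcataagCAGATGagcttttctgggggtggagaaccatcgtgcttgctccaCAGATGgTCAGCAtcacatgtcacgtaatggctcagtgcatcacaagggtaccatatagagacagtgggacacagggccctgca
Pdx1: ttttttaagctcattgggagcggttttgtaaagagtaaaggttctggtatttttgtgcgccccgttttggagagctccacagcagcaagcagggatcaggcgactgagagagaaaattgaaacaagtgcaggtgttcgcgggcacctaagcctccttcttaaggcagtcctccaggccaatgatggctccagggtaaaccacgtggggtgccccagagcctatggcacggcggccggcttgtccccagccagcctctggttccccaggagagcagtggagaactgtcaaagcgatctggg

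The Nkx2-2 promoter held the E-box once, at -220 to -215 from the start site, and the Nkx6-1 promoter held the Maf core once, at -12 to -7. The second G6pc2 promoter held both motifs 2 times each. Its E-boxes lay at -78 to -73 and at -34 to -29, and its Maf cores lay at -121 to -116 and at -27 to -22. The Neurod1 promoter held 2 adjoining Maf cores, at -50 to -45 and -44 to -39. No match was present in the windows of Pdx1, Isl1, the first G6pc2 start site and both Pax6 start sites. Of all 32851 promoters in the RefSeq table, 17.2% held CAGATG and 19.5% held TGCTGA. The motifs TGANTCA, which Bach and small Maf proteins share with AP-1, and TAATTA, a core of homeodomain sites, were present in 7.81% and 5.29% of all promoters and in none of the 9. The letters of TGCTGA can overlap CAGATG or TGANTCA, but none of the 8 matches overlapped another. The motifs were chosen after the sequences had been seen.

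The 9 genes were low in whole pancreas. As FPKM (fragments relative to gene length and library size, which allows levels of different genes to be compared), the means over all 8 libraries were 0.522 ± 0.336 (SD) for G6pc2, 0.432 ± 0.167 for Pdx1, 0.366 ± 0.283 for Mafa, 0.280 ± 0.181 for Slc30a8, 0.271 ± 0.179 for Nkx2-2 and 0.193 ± 0.150 for Nkx6-1. Isl1 (0.0193 ± 0.0198), Pax6 (0.0151 ± 0.0118) and Neurod1 (0.00527 ± 0.00921) were lower still. These levels depend on the gene length used, which was 11694 bases for Pax6 and 3959 bases for Isl1. By counts Pax6 was above Isl1, with 156 against 63 in all libraries together. Neurod1 lies within the gene Cerkl, and the effect of this overlap on its level was not tested. For comparison, Ins2 had a mean level of 357 FPKM and Gcg of 28.1 FPKM in the same libraries. Ordered by the mean of log2(FPKM + 0.01), the genes ran from G6pc2 over Pdx1, Mafa, Nkx2-2, Slc30a8, Nkx6-1, Isl1 and Pax6 to Neurod1. The 8 pairs of neighbours in this order were compared by two-sided exact permutation tests of the paired differences. The smallest possible p was 0.0078, which for a single pair becomes 0.0625 after adjustment over the 8 pairs, so that no single pair could pass. The widest step was between Nkx6-1 and Isl1, where Nkx6-1 was higher in 8 of 8 libraries by 2.62 ± 1.20 (SD) on the log2 scale (exact p = 0.0078, adjusted p = 0.0625). For the other 7 pairs the adjusted exact p was between 0.146 and 0.773. In the Bach2WT libraries alone Pdx1 came first and Slc30a8 came before Nkx2-2.

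**Figure D1:**
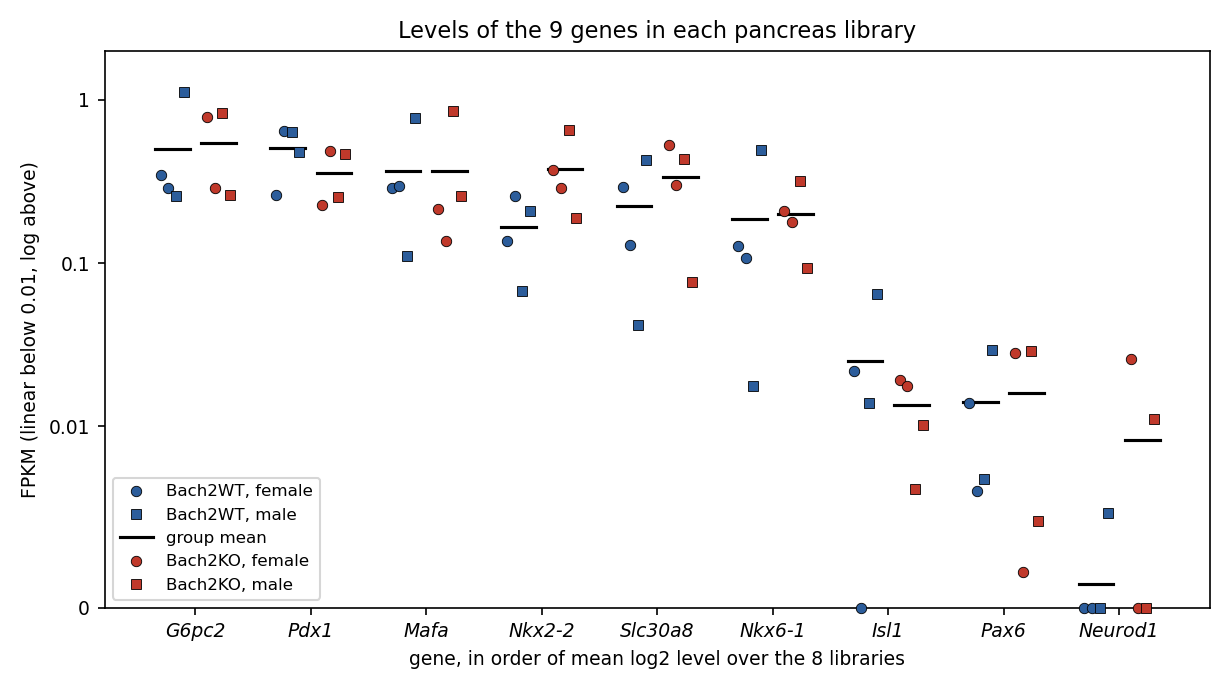
Level of each gene (FPKM on the y axis, linear below 0.01 and logarithmic above) in the 8 pancreas libraries, by genotype and sex, with the genes on the x axis in order of their mean log2 level. Circles are females, squares are males and bars are group means. The groups overlapped for each of the 9 genes.

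The comparison of Bach2KO with Bach2WT asks whether the loss of Bach2 changed the amount of these transcripts in the pancreas. After the filter on low counts, 12820 genes were tested, among them 7 of the 9 genes; Isl1 and Neurod1 had too few counts. None of the 7 passed an adjusted p of 0.05 in edgeR, and none of the 8 genes with an adjusted p did in DESeq2, where 0.544% of all genes with an adjusted p passed. Over all genes tested, 1 gene (0.0078%) passed in edgeR, Rnase2a, a ribonuclease of eosinophils that is not among the 9 and was named after its value was seen. At an unadjusted p below 0.05 there was 1 of the 7, Nkx2-2, against 7.46% of all genes tested. The fold change was above 1 for 6 of the 7 genes and for 54.7% of all genes tested. The median log2 fold change was 0.16 for the 7 genes and 0.05 for all genes tested. The CPM values of the groups were separate for 0 of the 9 genes and for 4.49% of all genes tested. In bulk tissue, fewer islet cells and less RNA per islet cell cannot be told apart.

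Nkx2-2 is a homeodomain factor that beta, alpha and PP cells need for their development (chr2:147019466-147036163, GRCm39, reverse strand). Its counts were 182, 71, 144 and 107 in Bach2KO 1 to 4 and 36, 99, 28 and 42 in Bach2WT 1 to 4. Scaled to depth, these were 1.12, 0.857, 1.90 and 0.554 CPM in Bach2KO and 0.400, 0.754, 0.195 and 0.605 CPM in Bach2WT. The Bach2KO 3 library was the highest and Bach2WT 3 the lowest, and Bach2KO 4 lay below 2 of the Bach2WT libraries, so the groups overlapped. The means were 1.11 ± 0.577 and 0.488 ± 0.244 CPM (SD, 4 mice each). The log2 fold change was 1.18 (SE 0.48, 95% interval 0.15 to 2.21), with adjusted p = 0.636 in edgeR. The unadjusted p was 0.0284 in edgeR and 0.0190 in DESeq2 (log2 fold change 1.16, adjusted p = 0.411), against p = 0.0857 in the two-sided exact permutation test of the CPM values, where 0.0286 is the smallest possible p. Without Bach2KO 3 the log2 fold change in edgeR was 0.77 (adjusted p = 0.728), and without Bach2WT 1 or Bach2WT 3 it was 1.10 (adjusted p = 0.525) or 0.91 (adjusted p = 0.840). In each of these 3 fits the unadjusted p of Nkx2-2 was above 0.05. Within sex, the means were 0.991 against 0.577 CPM in females and 1.23 against 0.400 CPM in males. Antisense noncoding genes overlap Nkx2-2 in the table, Nkx2-2os with 30 counts and 6430503K07Rik with 172 counts in all libraries together, beside 709 counts for Nkx2-2. Whether the counting used the strand is not given in the sources used here.

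Pdx1, the factor that acinar, duct and endocrine cells of the embryonic pancreas all pass through and that adult beta cells keep at a high level, was the gene with a lower level in Bach2KO among the 7 tested (chr5:147206769-147212658, GRCm39, forward strand). Its counts were 84, 90, 42 and 199 in Bach2KO and 52, 185, 199 and 73 in Bach2WT. These corresponded to 0.519, 1.09, 0.555 and 1.03 CPM against 0.577, 1.41, 1.39 and 1.05 CPM. The 2 highest libraries, Bach2WT 2 and Bach2WT 3, were wild type and the lowest was Bach2KO 1, while Bach2WT 1 lay among the low Bach2KO values. The log2 fold change of -0.47 (SE 0.38, 95% interval -1.30 to 0.35) had an adjusted p of 0.844 in edgeR and was -0.36 without Bach2KO 3. Pdx1 had the smallest spread of the 9 genes, with a coefficient of variation of 38.0% in CPM over the 8 libraries. Its antisense neighbour Plut, which shares 1563 bases with it, had 99 counts in all libraries together against 924 for Pdx1.

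Nkx6-1 is a homeodomain factor of the beta cell that represses the programmes of other endocrine cells (chr5:101806005-101812862, GRCm39, reverse strand). Its counts were 111, 48, 77 and 58 in Bach2KO and 37, 45, 8 and 108 in Bach2WT, or 0.686, 0.580, 1.02 and 0.3005 CPM against 0.411, 0.343, 0.0557 and 1.55 CPM. The highest and the lowest library were both wild type, Bach2WT 4 and Bach2WT 3, and enclosed all Bach2KO libraries. The log2 fold change was 0.14 (SE 0.72, 95% interval -1.41 to 1.70) with an adjusted p of 0.982 in edgeR, and -0.18 without Bach2KO 3.

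Mafa, which switches on insulin transcription in mature beta cells (chr15:75617339-75620077, GRCm39, reverse strand), had 101, 32, 179 and 140 counts in Bach2KO and 73, 108, 44 and 148 counts in Bach2WT. The CPM values were 0.624, 0.386, 2.36 and 0.725 against 0.811, 0.823, 0.306 and 2.13. Bach2KO 3 and Bach2WT 4 stood above the other 6 libraries, 1 in each group. The log2 fold change was 0.01 (SE 0.60, 95% interval -1.29 to 1.32) with an adjusted p of 0.998 in edgeR. It was -0.81 (adjusted p = 0.764) without Bach2KO 3 and -0.01 with RLE factors, so no direction can be given for Mafa.

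Pax6, a paired-box factor of all islet cell types (chr2:105499245-105527709, GRCm39, forward strand), had 56, 2, 26 and 11 counts in Bach2KO and 15, 10, 12 and 24 counts in Bach2WT. These were 0.346, 0.0241, 0.343 and 0.0570 CPM against 0.167, 0.0762, 0.0835 and 0.346 CPM. Bach2KO 1, Bach2KO 3 and Bach2WT 4 were close to each other and above the remaining 5 libraries, of which Bach2KO 2 was lowest. The log2 fold change was 0.22 (SE 0.92, 95% interval -1.76 to 2.197) with an adjusted p of 0.980 in edgeR, and -0.23 without Bach2KO 3.

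Isl1, a LIM-homeodomain factor of endocrine cells (chr13:116434817-116446225, GRCm39, reverse strand), had 13, 6, 2 and 8 counts in Bach2KO and 8, 0, 8 and 18 counts in Bach2WT. Its mean was 0.0552 ± 0.0255 CPM in Bach2KO and 0.101 ± 0.112 CPM in Bach2WT (SD, 4 mice each), and the difference had p = 0.629 in the exact permutation test. Neurod1, a basic helix-loop-helix factor that activates insulin (chr2:79282865-79287095, GRCm39, reverse strand), had 12, 0, 0 and 6 counts in Bach2KO and 0, 0, 0 and 1 count in Bach2WT (exact permutation test, p = 0.429). A count of 0 allows up to 3 counts, or up to 6 if both mates of a pair were counted, which is 0.0209 to 0.0333 CPM or 0.0418 to 0.0666 CPM in the Bach2WT libraries 1 to 3, and these limits cover counting error only. A difference in Neurod1 was not detectable at this depth. Neurod1 lies wholly within the gene Cerkl on the same strand (4231 bases in common), which had 24 counts in all libraries together, and what share of reads the counting left out for this overlap was not tested.

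The membrane proteins were G6pc2, the highest of the 9 genes by mean FPKM, and Slc30a8. Slc30a8 (chr15:52158949-52199194, GRCm39, forward strand) had 179, 51, 66 and 30 counts in Bach2KO and 53, 34, 12 and 59 counts in Bach2WT, or 1.11, 0.616, 0.872 and 0.155 CPM against 0.588, 0.259, 0.0835 and 0.849 CPM. Bach2KO 1 was highest and Bach2WT 3 lowest, and Bach2KO 4 lay below 3 of the Bach2WT libraries. Its log2 fold change was 0.64 (SE 0.68, 95% interval -0.83 to 2.11) with an adjusted p of 0.901 in edgeR, and 0.49 without Bach2KO 3. G6pc2 (chr2:69041417-69058185, GRCm39, forward strand) had 266, 49, 126 and 102 counts in Bach2KO and 63, 76, 74 and 154 counts in Bach2WT. These were 1.64, 0.592, 1.66 and 0.528 CPM against 0.699, 0.579, 0.515 and 2.22 CPM. Bach2WT 4 stood alone above the other 3 wild-type libraries, and the Bach2KO libraries fell into a high and a low pair. The log2 fold change of G6pc2 was 0.16 (SE 0.53, 95% interval -0.98 to 1.30) with an adjusted p of 0.975 in edgeR, and -0.13 without Bach2KO 3.

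**Figure D2:**
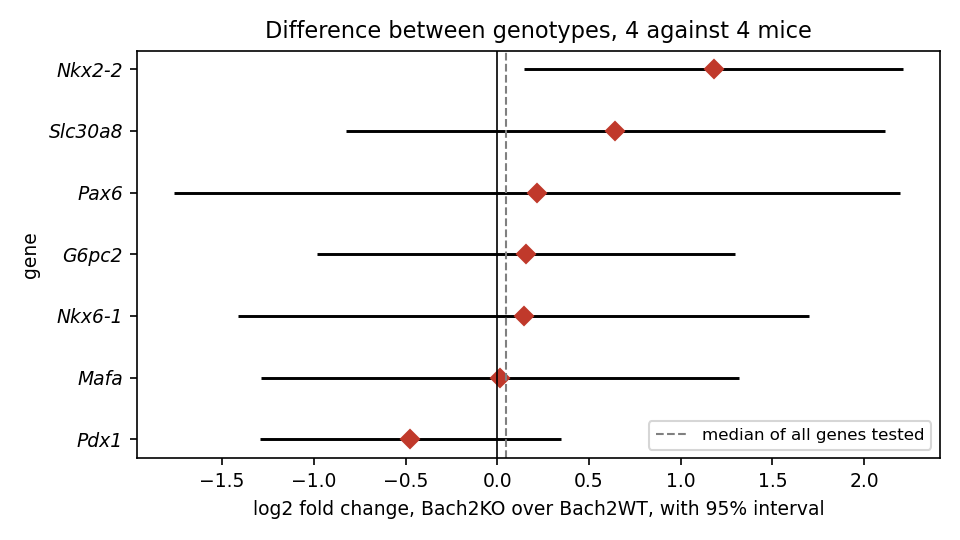
Log2 fold change of Bach2KO over Bach2WT from edgeR (x axis, diamonds) with its 95% interval (lines) for the 7 genes tested (y axis), and the median of all genes tested (dashed line, 0.05). The interval of Nkx2-2, 0.15 to 2.21, lay above 0 before adjustment, and the other 6 intervals included 0.

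The difference between the genotypes was also compared between the sexes. Males minus females, it was largest in size for G6pc2 (-1.14, SE 1.04), Nkx6-1 (-1.03, SE 1.48) and Mafa (1.03, SE 1.10) on the log2 scale. None of the 7 interactions passed the adjusted threshold in edgeR, where the lowest adjusted p was 0.932 for G6pc2, and none of the 9 did in DESeq2. Over all genes tested, 0% passed in edgeR and 0.084% in DESeq2, and none of the genes described here that were tested had an unadjusted p below 0.05 in either. With 2 mice per sex and genotype, the intervals are wide.

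All tested genes except Pdx1 were positively correlated with each other over the libraries. The 15 pairs among Nkx6-1, Nkx2-2, Pax6, Mafa, Slc30a8 and G6pc2 had Pearson correlations of log2 CPM from 0.36 to 0.89 with a median of 0.72. The 2 highest were Nkx6-1 with Slc30a8 (0.89) and Pax6 with G6pc2 (0.89). By rank correlation (rho) the same pairs ran from 0.26 for Nkx2-2 with Pax6 to 0.98 for Nkx6-1 with G6pc2. Bach2KO 3 and Bach2WT 4 were both among the 3 highest libraries for Nkx6-1, Pax6, Mafa, Slc30a8 and G6pc2. The 6 pairs with Pdx1 were all negative, from -0.71 with Slc30a8 to -0.38 with Mafa, with a median of -0.54. Over all 21 pairs the median was 0.56, and it was 0.47 without Bach2KO 3. These values describe 8 libraries that also differ in depth and in the level of hormone transcripts, and they carry no test.

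**Figure D3:**
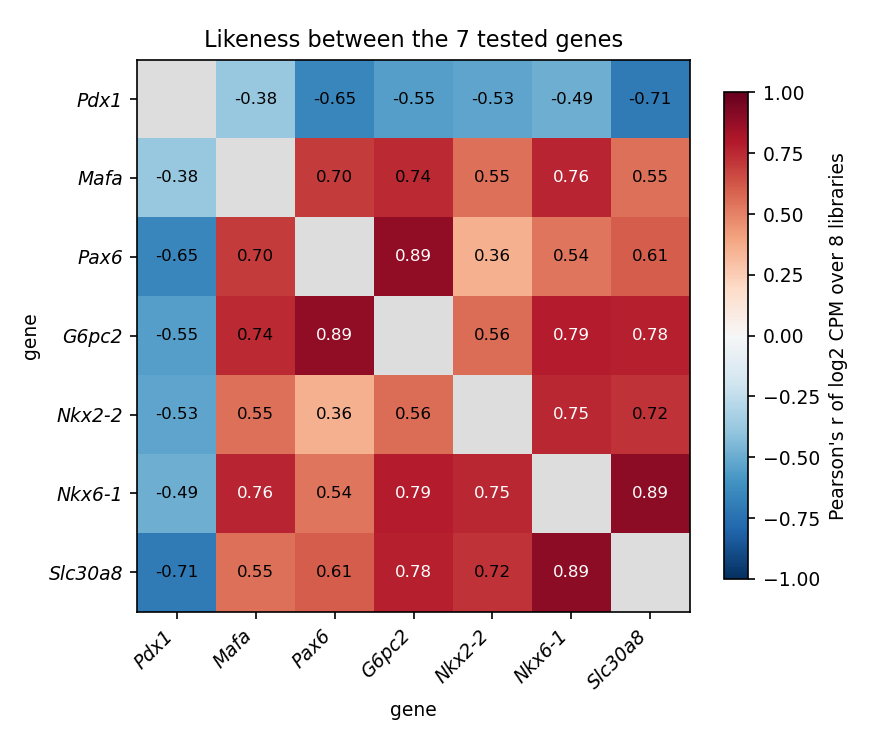
Pearson correlation of log2 CPM over the 8 libraries (colour scale from -1 to 1, printed in each cell) for each pair of the 7 genes tested on both axes. The row and column of Pdx1 hold negative values, -0.71 to -0.38, and the other pairs lie between 0.36 and 0.89.

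Each gene tested was also ranked by the median of its correlations with the 7 genes over the 8 libraries. The highest medians were those of Cntfr (0.83), Resp18 (0.83), Iapp (0.83), Pcsk2 (0.83), Mctp1 (0.82), Slc6a17 (0.82), Lrrc10b (0.81) and Syt13 (0.81). For each of these genes the lowest of the 7 correlations was negative, from -0.70 for Cntfr to -0.42 for Mctp1. Iapp encodes amylin, which beta cells secrete with insulin, and Pcsk2 encodes a convertase of prohormones. For single genes, the 2 most alike were Helz (0.97) and Gcg (0.96) for Nkx2-2, Syndig1l (0.97) and Mctp1 (0.97) for Nkx6-1, Cntfr (0.94) and Iapp (0.92) for G6pc2, and Arrdc3 (0.97) and ENSMUSG00000120992 (0.96) for Slc30a8. They were Atp2b4 (0.98) and Tafa5 (0.95) for Pax6, and Ddx56 (0.95) and Ddx41 (0.93) for Mafa. The 2 most like Pdx1 were Gm38910 (0.96) and Pkp3 (0.96).

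The 7 genes were also set against Gcg and Ins2 as hormone transcripts of the same libraries, which gave 14 relations. Gcg, the glucagon gene of alpha cells, had 82.2, 49.7, 97.2 and 17.7 CPM in Bach2KO and 14.0, 38.4, 4.34 and 41.3 CPM in Bach2WT. Its log2 fold change was 1.33 (SE 0.59, adjusted p = 0.663 in edgeR and unadjusted p below 0.05), and the libraries high in Gcg were those high in Nkx2-2. Over the 8 libraries Nkx2-2 followed Gcg with r = 0.96 (permutation p = 4.96e-05, adjusted over the 14 relations 6.94e-04) and rho = 0.98 (permutation p = 3.97e-04, adjusted 0.00556). Leaving out Bach2WT 1 and Bach2WT 3, the 2 libraries farthest from the median of Gcg, r was 0.89 (permutation p = 0.0208, adjusted 0.0940). Without Bach2KO 3 alone r was 0.98 (permutation p = 3.97e-04). The adjustment covers the 14 relations only, and over all genes tested Helz was as close to Nkx2-2 (0.97) as Gcg was. The permutations took all 8 libraries together, although both Nkx2-2 and Gcg had higher means in Bach2KO. No correlation was computed within the 4 mice of a genotype. With Gcg as a covariate, chosen after the values were seen, the log2 fold change of Nkx2-2 was 0.31 (SE 0.40, adjusted p = 0.996 in edgeR), and with Ins2 in its place it was 1.03 (SE 0.40, adjusted p = 0.634). With the mean of 6 hormone genes as the covariate it was 0.75 (SE 0.38, adjusted p = 0.776). Gcg itself had a higher mean in Bach2KO, so Gcg as a covariate and the genotype are not separated in that fit. The part of the alpha cell content in the Nkx2-2 difference was not tested.

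Slc30a8 and Nkx6-1 followed Gcg less closely, with r = 0.82 and r = 0.85 over the 8 libraries (permutation p = 0.0106 and 0.00965, both adjusted to 0.0253) and rho = 0.88 and 0.79 (permutation p = 0.00724 and 0.0279). Without Bach2WT 1 and Bach2WT 3, r was 0.87 for Slc30a8 (permutation p = 0.0236, adjusted 0.0940) and 0.58 for Nkx6-1 (permutation p = 0.219, adjusted 0.313). Neither relation passed the adjusted threshold without those libraries, which also left fewer values for the test. The r of Nkx6-1 fell, and that of Slc30a8 did not. Without Bach2KO 3 alone, r was 0.80 for Slc30a8 and 0.83 for Nkx6-1. For G6pc2, Mafa, Pax6 and Pdx1 the adjusted permutation p of r with Gcg was between 0.117 and 0.349.

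**Figure D4:**
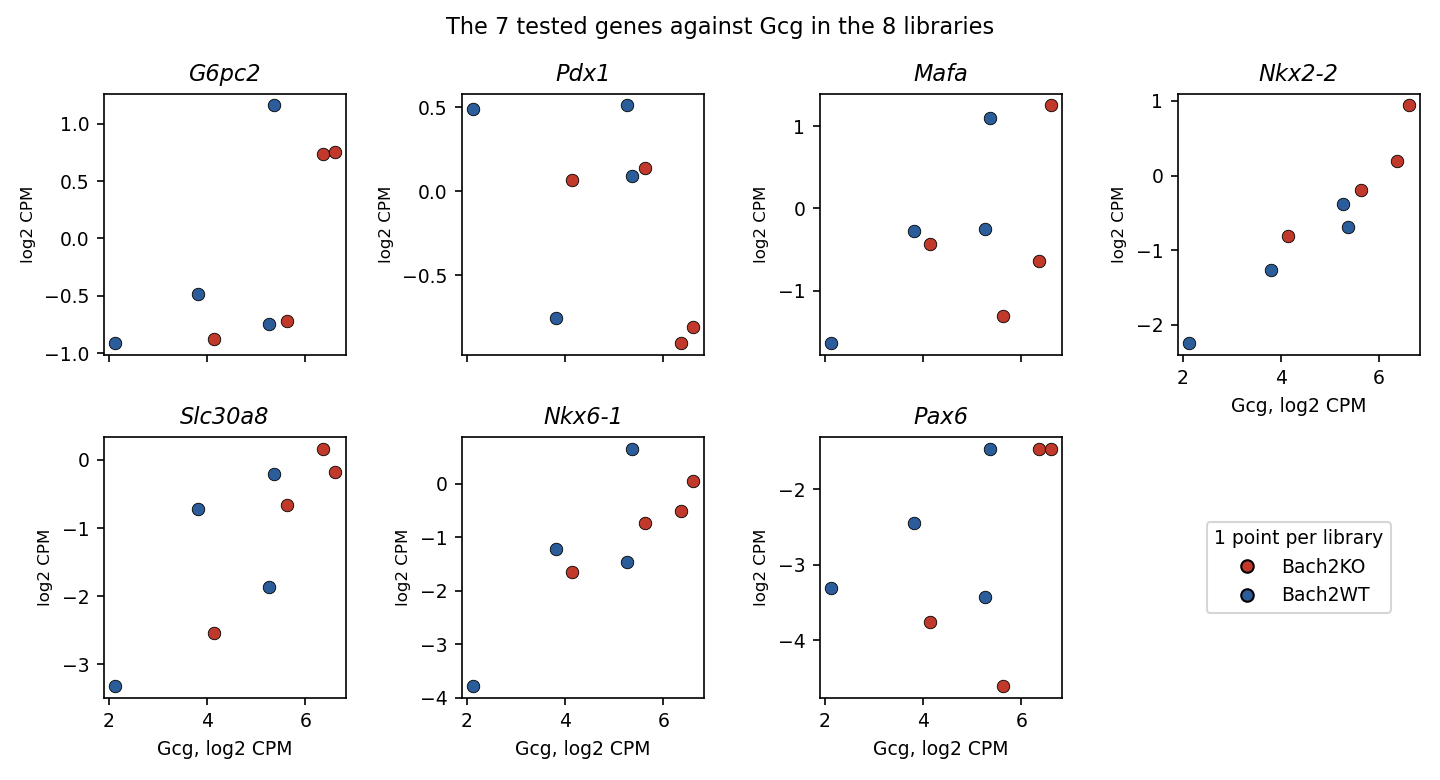
Log2 CPM of each of the 7 genes tested (y axes) against log2 CPM of Gcg (x axis), with 1 point per library coloured by genotype. Nkx2-2 rises with Gcg over all 8 libraries (r = 0.96), and Bach2WT 3, with 4.34 CPM of Gcg, is the leftmost point of each panel.

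Ins2 separated the libraries into clusters. Bach2KO 3 and Bach2WT 4 had 889 and 1017 FPKM, and the other 6 libraries had 87.7 to 253 FPKM, so r is given within these 6 only. Over all 8 libraries, G6pc2, Nkx6-1 and Mafa passed an adjusted permutation p of 0.05 with Ins2 by r. By rho, G6pc2, Nkx6-1 and Slc30a8 passed (adjusted permutation p = 0.0213, 0.0156 and 0.0431), and Mafa did not (0.101). Within the 6 none of the 7 genes passed by r or rho, so these relations passed only with Bach2KO 3 and Bach2WT 4 included. The test within the 6 also had fewer libraries, so a lost threshold alone does not show a weaker relation. Over all 8 libraries rho was 0.90 for G6pc2, 0.93 for Nkx6-1, 0.83 for Slc30a8 and 0.71 for Mafa. Within the 6, r with Ins2 was 0.86 for Slc30a8, 0.83 for Nkx2-2, 0.79 for Nkx6-1 and 0.74 for G6pc2 (permutation p from 0.0278 to 0.0403, each adjusted to 0.0940). It was 0.43 for Pax6, 0.35 for Mafa and -0.48 for Pdx1 (permutation p from 0.325 to 0.469). The corresponding rho was 0.83, 0.89, 0.83 and 0.77 for the first 4 genes and 0.26, 0.37 and -0.26 for the others. The 2 libraries with the most insulin transcript were of different genotype, and Ins2 itself had a log2 fold change of -0.02 (SE 0.74) and Ins1 of -0.29 (SE 0.79).

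Other genes of the endocrine cells were looked at by list. Of 17 factors of the endocrine lineage, 15 were in the table and 4 were tested, with 3 higher and 1 lower and a median log2 fold change of 0.41. Hhex, a factor of delta cells, had a log2 fold change of 0.78 (SE 0.46). Neurog3, the factor of endocrine progenitors, was near 0 with 0.00413 and 0.00360 CPM. Myt1, Nkx6-2 and Pou3f4 were at 0 in Bach2WT and at 0 to 15 counts in Bach2KO. Lmx1b, also not tested, went the other way, with means of 0.00772 CPM in Bach2KO and 0.0278 CPM in Bach2WT. Of the 7 islet hormone genes 5 were higher and 2 lower (median 0.36), and the list summed to 219 to 1965 CPM in Bach2KO and to 178 to 2261 CPM in Bach2WT. All 6 prohormone processing genes were tested, with 4 higher and 2 lower (median 0.58), among them Cpe (0.37, SE 0.37) and Pcsk1n (1.04, SE 0.61), and none had an unadjusted p below 0.05. None of the genes of these lists passed the adjusted threshold.

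Of the 24 genes of glucose sensing and secretion, 22 were tested, 13 higher and 9 lower with a median of 0.06. Those with an unadjusted p below 0.05 in edgeR were 2, both lower in Bach2KO. Ero1b, an oxidase of protein folding in the endoplasmic reticulum, had 83.0 to 105 CPM in Bach2KO and 107 to 168 CPM in Bach2WT, which did not overlap (-0.44, SE 0.17, adjusted p = 0.627). Gipr, the receptor for the incretin GIP, did not overlap in the opposite direction, with 0.192 to 0.278 CPM in Bach2KO and 0.0381 to 0.130 CPM in Bach2WT (1.22, SE 0.72, adjusted p = 0.768), and is named after its values were seen. Ptprn2, a granule protein and islet autoantigen, had 11.0 to 19.4 CPM against 16.2 to 27.5 CPM (-0.55, SE 0.23, adjusted p = 0.641). G6pc3, the ubiquitous relative of G6pc2, had a log2 fold change of -0.30 (SE 0.22). Of 16 factors that endocrine cells share with exocrine cells, 15 were tested, 6 higher and 9 lower (median -0.14), and none had an unadjusted p below 0.05. The 2 with the highest level were Bhlha15 (-0.36, SE 0.20) and Rbpjl (-0.30, SE 0.21), both of acinar cells.

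Markers of other cells in the tissue were looked at by list, and none of them passed the adjusted threshold in edgeR. Of the 10 acinar markers 8 were lower in Bach2KO (median -0.28), 4 of them with an unadjusted p below 0.05 in edgeR (Cel, Cela2a, Cpa1 and Prss2), and their sum was 457871 to 522121 CPM in Bach2KO and 509793 to 684540 CPM in Bach2WT. Of the 7 duct markers tested 4 were higher (median 0.12), with Epcam (0.81, SE 0.20) and Krt7 (0.57, SE 0.22) at an unadjusted p below 0.05, and the list summed to 89.3 to 139 CPM against 112 to 156 CPM. All 6 T cell markers tested had a fold change above 1, none with an unadjusted p below 0.05 (median 0.85). Of the 8 macrophage markers 6 had a fold change above 1 (median 0.51), with Lyz2 (1.15, SE 0.35) and C1qb (0.95, SE 0.31) at an unadjusted p below 0.05. The others, C1qa (-0.64, SE 0.30) and Adgre1 (-0.27, SE 0.39), were lower in Bach2KO. The T cell list summed to 0.809 to 2.84 CPM in Bach2KO and 0.187 to 2.15 CPM in Bach2WT, and the macrophage list to 23.4 to 36.9 CPM and 16.8 to 31.5 CPM. Among neuron and Schwann cell markers, 3 were tested and 3 had a fold change above 1, none with an unadjusted p below 0.05 (median 2.17), on sums of 0.471 to 1.51 CPM against 0.111 to 0.561 CPM. Of those not tested, Th was at 0 in Bach2WT and at 2 to 16 counts in Bach2KO. Sox10 went the other way, with means of 0.0212 CPM in Bach2KO and 0.0555 CPM in Bach2WT. Of 7 intestinal markers 3 were in the table and 1, Vil1, was tested (0.20, SE 0.90). Lgr5 and Muc2 were at 0 in Bach2WT and at 0 to 14 counts in Bach2KO. Of the Bach and small Maf factors, 5 were tested and 5 were higher (median 0.40), with Mafk at 0.69 (SE 0.28) and an unadjusted p below 0.05. The part of these cell types in the levels of the 9 genes was not tested.

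**Figure D5:**
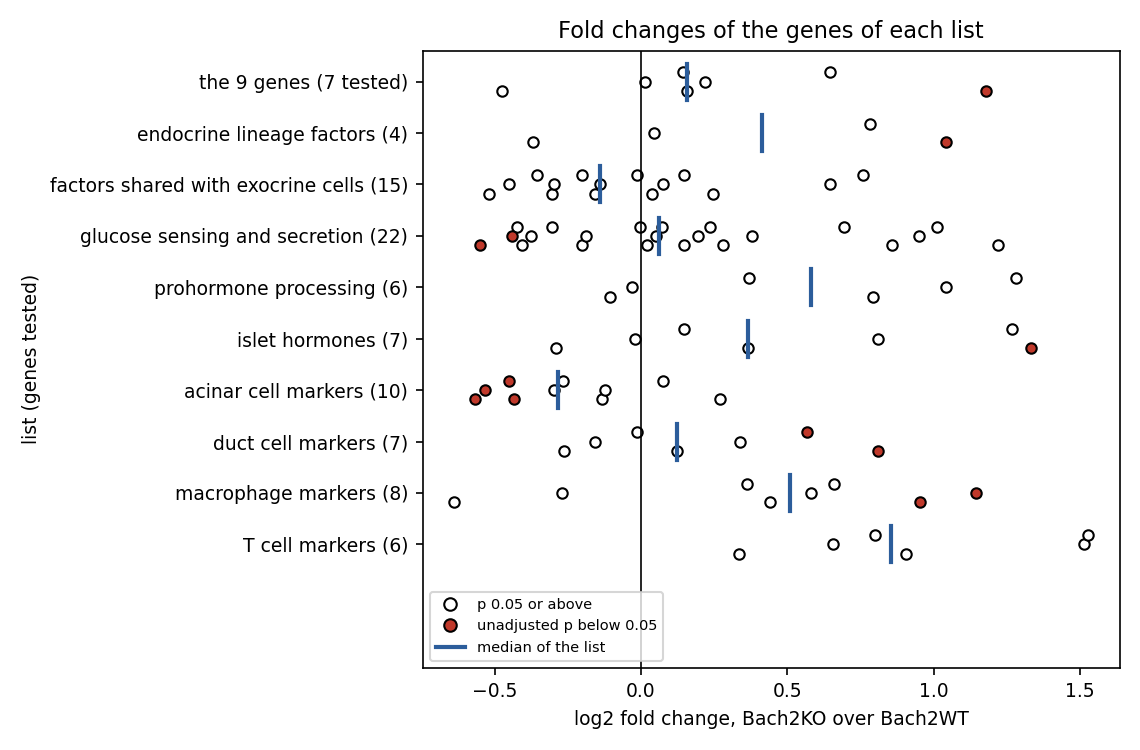
Log2 fold change of Bach2KO over Bach2WT (x axis) for the tested genes of each list (y axis, number of genes tested in parentheses), with 1 circle per gene, filled for an unadjusted p below 0.05, and a bar at the median of the list. The 7 genes had a median of 0.16, and the acinar markers had a median of -0.28.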

How the data were processed

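Total RNA of pancreatic tissue was sequenced as poly(A) libraries. According to the submitters' processing notes, fastp, HISAT2 2.2.1, featureCounts 2.0.6 and the build mm39 (GRCm39) were used. Strand and mate handling are not given in the sources used here. Of the counts from 1 to 19 in a library, 72.8% to 75.0% were even, as would arise if both mates were counted. The authors deposited raw counts per gene, a normalized signal (counts divided by a size factor per library, not used for tests) and FPKM values made from that signal. Their fold changes and p-values were not used. The deposited counts were compared with edgeR 4.0.16 (quasi-likelihood test, TMM factors, filterByExpr, no covariate, Benjamini-Hochberg adjustment over 12820 genes, threshold 0.05). The SE was the log2 fold change divided by the square root of F. DESeq2 1.42.0 was an alternative. CPM used TMM factors, and log2 CPM a prior count of 2. For single values a two-sided exact permutation test was run. The scripts were tested on simulated data. Levels, likeness, hormone relations and the lists were described as stated beside them. The genes, lists and named genes (2 with the highest level per endocrine list, and those with an unadjusted p below 0.05) were chosen with earlier results of these data known. Nothing says from which site each mouse came. A gene of the endocrine lineage list is not reported here.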

Additional observations from a re-analysis of the deposited data

Results flagged for a closer look

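Among the 18 groups of 4 values (9 genes in 2 genotypes), 2 held a value far from the other 3, where chance alone gives about 1 in 20 for values that vary freely. G6pc2 was at 2.22 CPM in Bach2WT 4, and the other 3 wild-type libraries were at 0.515 to 0.699 CPM. Neurod1 was at 0.0144 CPM in Bach2WT 4, which is 1 count, and at 0 in the other 3 wild-type libraries. With 3 values at 0, any count in the remaining library stands apart, so that rate does not apply to Neurod1. Bach2WT 4 also had the highest Ins2 level, 1017 FPKM.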

How the results depend on the processing

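None of the 9 genes passed an adjusted p of 0.05 under any of the alternatives run, of which Gcg and Ins2 as covariates were chosen after seeing the data. Without adjustment 1 gene, Nkx2-2, was below 0.05, except with the replicate block, the hormone level or Gcg as a covariate, and without Bach2KO 3, Bach2WT 1 or Bach2WT 3. The count over all genes tested, 1 in edgeR, was 80 with DESeq2 (57 higher and 23 lower), 73 without the filter on low counts and 957 without adjustment. It was 0 with at least 10 counts in every library, with sex, the hormone level, Gcg or Ins2 as a covariate, with counts divided by 2, and without any one of the 8 mice (range 0 to 0). It stayed at 1 with RLE factors, with library sizes without the top 1% of genes and with the gene length correction. With the replicate number as a replicate block it was also 0, and the log2 fold change of Nkx2-2 was 1.15 (adjusted p = 0.680 in edgeR). The deviations of same-numbered mice from their group means correlated at 0.21, -0.03, -0.04 and -0.05. Those of differently numbered mice correlated at -0.165 to 0.106, so only the value of the replicates numbered 1 lay above that range. These values do not settle whether the numbers pair the samples.

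Nkx2-2 was higher in Bach2KO and Pdx1 lower under each of their 20 alternatives, from 0.31 (Gcg as covariate) to 1.49 (without Bach2WT 2) and from -0.69 to -0.30, with adjusted p from 0.411 to 0.996 and from 0.582 to 0.996. The direction of the other genes, none of them called, changed with the setting, and the cause was not tested. With Gcg as covariate the log2 fold changes were -0.89 for Nkx6-1, -1.05 for Pax6, -0.77 for Mafa, -0.78 for Slc30a8 and -0.72 for G6pc2. With the hormone level as covariate they were -0.47 for Pax6, -0.36 for Mafa and -0.22 for G6pc2, and with the replicate block -0.18 for Pax6 and -0.17 for Mafa. Mafa was further at -0.0054 with DESeq2, -0.0054 with RLE factors, -0.16 with sex as covariate, -0.0454 with the gene length correction and -0.0243 with Ins2 as covariate. Leaving out each mouse gave -0.25 to 1.26 for Nkx6-1, -0.25 to 0.83 for Pax6, -0.81 to 0.65 for Mafa, 0.29 to 1.16 for Slc30a8 and -0.13 to 0.89 for G6pc2. The sign turned without Bach2KO 3 or Bach2WT 2 or 3 for Nkx6-1, Pax6, Mafa and G6pc2, without Bach2KO 1 for Pax6 and G6pc2, and without Bach2WT 1 for Mafa. The difference in Isl1 was between -0.0794 and 0.00698 CPM, turning without Bach2WT 4, and that of Neurod1 stayed positive. The median correlation between the 7 genes was 0.56 and ranged from 0.45 to 0.68 without a mouse, and the number of differing neighbours in the order of levels stayed at 0, though a single pair could not pass the adjusted threshold with 8 libraries and 4 libraries alone cannot give a p below 0.05. With at least 10 counts in every library, Nkx6-1 and Pax6 were not tested. Counts of 2 to 56 per library for Pax6, and fewer for Isl1 and Neurod1, limit what these libraries can show.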
